A study of Mus musculus with 12 samples.

Results

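Expression of 9 genes of MHC class II antigen presentation and of Langerhans cells was examined in mouse dorsal skin. The genes were H2-Aa, H2-Ab1, H2-Eb1, H2-DMa, H2-DMb1, Cd74, Ciita, Cd207 and Epcam. They were taken by gene symbol and are 9 of the 36400 genes measured. Each of the 9 passed the filter on low values, an average level over the 12 libraries of 0.1 FPKM or more (fragments scaled to transcript length and to the library total), which 21890 genes passed. MHC class II molecules are pairs of an alpha and a beta chain that present peptides of ingested proteins to CD4 T cells. The pairs assemble with the invariant chain Cd74, take up peptide with the help of the H2-DM pair, and are transcribed under the coactivator Ciita. Langerhans cells are the class II-bearing dendritic cells of the epidermis, which carry antigen to draining lymph nodes, contain the lectin langerin (Cd207) and carry Epcam, which is known to promote their movement out of the epidermis.

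RNA was sequenced from dorsal skin taken on day 30 from female BALB/c mice that were 6 weeks old when obtained, in 4 groups of 3 libraries. All groups had the back shaved and treated with hair removal cream before sensitization, and shaved again on day 24. The control group received the acetone and olive oil vehicle alone. The DNCB group was sensitized 4 times between day 0 and day 9 with the contact sensitizer dinitrochlorobenzene (DNCB) at 1% and challenged 6 times between day 12 and day 27 at 0.5%, as a model of atopic dermatitis-like skin. The scMSC group received the same DNCB course and 2000000 human umbilical cord mesenchymal stem cells (MSCs) per dose, given as 4 subcutaneous injections of 100 µL between day 13 and day 25. The scivMSC group received the same course and dose, split evenly between the subcutaneous and the tail vein route at 50 µL each. The MSCs were human cells in mice and were given while the challenge continued, and no group with MSCs but without DNCB, or with injected vehicle, was analysed here. Library totals of estimated counts lay between 63877153 and 75134001, and the lowest count of any of the 9 genes in a library was 135, for Ciita in scMSC 3 and for Cd207 in DNCB 1. P-values measure the spread between these libraries.

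In the DNCB group, 7 of the 9 genes were lower than in the control group at an adjusted p under 0.05 in edgeR's quasi-likelihood test. They were H2-Aa, H2-Ab1, H2-Eb1, H2-DMa, H2-DMb1, Cd74 and Cd207. Of all genes tested, 25.3% passed in either direction and 12.4% were lower. The median log2 fold change was -1.44 over the 9 genes and 0.02 over all genes tested. The count was 4 when control 3 was left out and between 5 and 8 without any other single library.

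Against the DNCB group, Cd207 and Epcam were higher in both MSC groups, 2 of the 9 genes in each comparison. In scMSC skin 12.7% of all genes tested passed in either direction and 6.95% were higher. In scivMSC skin these shares were 8.16% and 4.56%. None of the 6 class II genes or Ciita passed against DNCB in either MSC group. The median log2 fold change of the 9 genes against DNCB was 0.37 in scMSC and 0.63 in scivMSC skin, beside 0.02 over all genes tested in each. The count of 2 became 1 in scMSC skin without DNCB 1, 2 or 3, control 1 or 2, or scMSC 1 or 2. In scivMSC skin it became 1 without DNCB 2 or 3, or scivMSC 1 or 3.

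Against the control group, 5 of the 9 genes were lower in scMSC skin, where 18.5% of all genes tested passed in either direction and 8.12% were lower. The 5 were H2-Aa, H2-Ab1, H2-Eb1, H2-DMa and H2-DMb1. In scivMSC skin 1 of the 9, H2-DMa, was lower, where 13.2% passed in either direction and 6.13% were lower. The medians of the 9 genes against control were -0.98 in scMSC and -0.76 in scivMSC skin, beside 0.00 and 0.04 over all genes tested. The scMSC count was 0 without control 3, scMSC 2 or scMSC 3, 1 or 2 without control 1 or 2, DNCB 1, 2 or 3, or scivMSC 1 or 2, and 8 without scMSC 1. The scivMSC count was 0 without any library of the control, DNCB or scivMSC groups and 2 without scMSC 1 or scMSC 3. Comparisons with the control group share its 3 libraries, and those with the DNCB group share its 3, so their values are given side by side and not correlated. Between the scivMSC and scMSC groups, 0 of the 9 genes passed in edgeR, in DESeq2 or in limma, and 0 had an unadjusted p under 0.05, where 0.00457% of all genes tested passed, 1 gene of 21890.

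**Figure D1:**
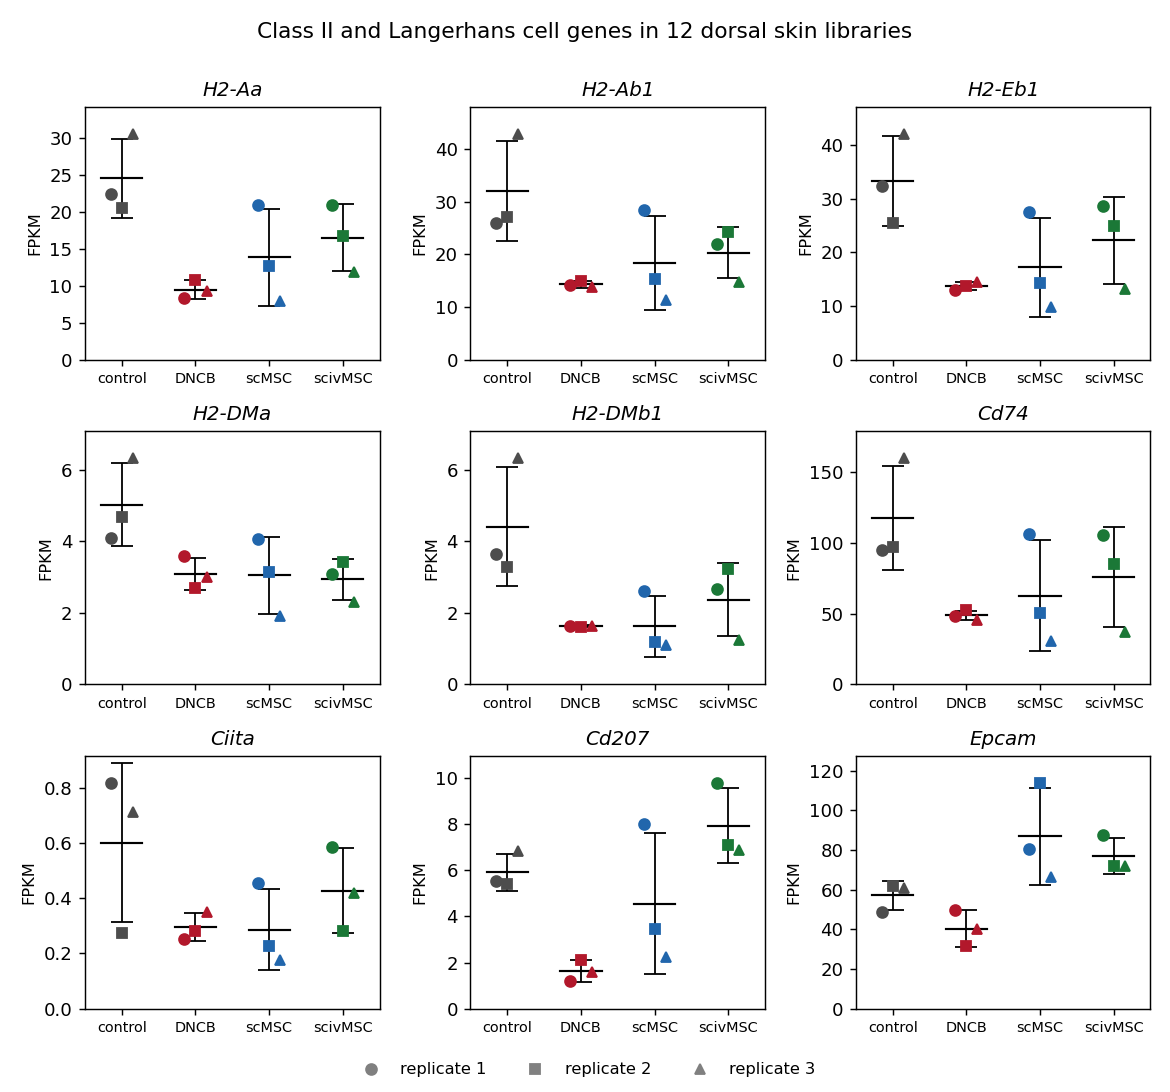
FPKM of the 9 genes in each of the 12 libraries by group, with the marker shape for the replicate number, a horizontal line at the group mean and bars of 1 SD over 3 libraries. The DNCB libraries lie below every control library for the 6 class II genes and for Cd207, which ran from 1.18 to 2.12 FPKM in DNCB and from 6.90 to 9.80 FPKM in scivMSC skin.

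The alpha and beta chains form the peptide-binding molecules I-A (H2-Aa with H2-Ab1) and I-E (H2-Eb1 with H2-Ea). The FPKM of H2-Aa was 22.4, 20.5 and 30.5 in the control libraries 1 to 3 and 8.35, 10.8 and 9.21 in the DNCB libraries. It was 20.9, 12.6 and 7.98 in scMSC and 20.95, 16.7 and 11.8 in scivMSC libraries. All 3 DNCB libraries lay below the lowest control library, while scMSC 1 and scivMSC 1 stood at the lower end of the control range and scMSC 3 below every DNCB library. The log2 fold change of DNCB against control was -1.55 ± 0.30 (SE, adjusted p = 0.00454), and the call held in 22 of 22 alternative settings. Against DNCB the log2 difference was 0.56 ± 0.30 in scMSC (adjusted p = 0.274) and 0.80 ± 0.30 in scivMSC (adjusted p = 0.135), where all 3 libraries lay above the DNCB range without the test passing.

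H2-Ab1 had 25.9, 27.1 and 42.9 FPKM in control libraries and 14.1, 15.02 and 13.8 in DNCB libraries. The scMSC libraries had 28.4, 15.4 and 11.4 FPKM and the scivMSC libraries 21.9, 24.2 and 14.8. The DNCB values lay close together below the control range, and the scMSC libraries spanned from under the DNCB range to inside the control range. DNCB against control gave a log2 fold change of -1.33 ± 0.30 (adjusted p = 0.00807), which passed in 22 of 22 alternative settings. Against DNCB the adjusted p was 0.4865 for scMSC, at a log2 difference of 0.37 ± 0.29, and 0.346 for scivMSC, at 0.50 ± 0.29.

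For H2-Eb1 the control libraries had 32.3, 25.5 and 42.1 FPKM and the DNCB libraries 12.98, 13.8 and 14.4. Values were 27.5, 14.25 and 9.89 FPKM in scMSC and 28.7, 24.85 and 13.15 in scivMSC skin. Each MSC group thus held a library within the control range and a library within or below the DNCB range. The log2 fold change of DNCB against control was -1.45 ± 0.35 (adjusted p = 0.0115), again past the threshold in 22 of 22 settings. Against DNCB it was 0.34 ± 0.34 in scMSC (adjusted p = 0.611) and 0.69 ± 0.34 in scivMSC (adjusted p = 0.267).

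In bulk skin, fewer cells of a type and less RNA per cell cannot be told apart, which holds for each of these genes. BALB/c mice carry the d haplotype of the MHC, while the reference genome is of C57BL/6, which carries the b haplotype and lacks a working H2-Ea. Levels of these polymorphic chains can thus be uncertain, and the comparison of groups is between mice of one strain. The H2-Aa, H2-Ab1 and H2-Eb1 calls of scMSC against control were close to the threshold. H2-Aa had a log2 fold change of -0.98 ± 0.30 (adjusted p = 0.0439), with 2 of the 3 scMSC libraries below the control range, and passed in 8 of 22 settings. It was lost without control 1, 2 or 3, DNCB 1, 2 or 3, scMSC 2 or 3 or scivMSC 2, at an adjusted p of 0.0571 to 0.112. H2-Ab1 had -0.96 ± 0.29 (adjusted p = 0.0441), also with 2 of 3 below, and passed in 6 of 22. Its call was lost without control 1, 2 or 3, DNCB 1, 2 or 3, scMSC 2 or 3 or scivMSC 1 or 2, at 0.0526 to 0.125. H2-Eb1 had -1.11 ± 0.34 (adjusted p = 0.0460), with 2 of 3 below, passed in 7 of 22, and was lost without the same libraries as H2-Ab1, at 0.0503 to 0.131. For scivMSC against control, H2-Aa, H2-Ab1 and H2-Eb1 had adjusted p values of 0.131, 0.0898 and 0.173. H2-Ab1 then passed without scMSC 1 (0.0332) or scMSC 3 (0.0462) and with DESeq2 (0.0305), in 3 of 22 settings, which ranged up to 0.231.

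H2-DMa and H2-DMb1 encode the chains of the H2-DM pair, which exchanges the invariant chain fragment for peptide in the endosome. H2-DMb1 had 3.63, 3.27 and 6.31 FPKM in control libraries and 1.63, 1.59 and 1.635 in DNCB libraries. In scMSC libraries it had 2.60, 1.165 and 1.09 FPKM, and in scivMSC libraries 2.65, 3.21 and 1.22. The 3 control libraries lay above each of the 9 other libraries. The log2 fold change against control was -1.61 ± 0.41 in DNCB (adjusted p = 0.0152) and -1.60 ± 0.41 in scMSC (adjusted p = 0.0213). In scivMSC it was -1.08 ± 0.40 (adjusted p = 0.1075), which passed with DESeq2 (0.0363) and ranged up to 0.278. The DNCB call was lost without DNCB 1 (0.0509) or control 3 (0.0514), and the scMSC call without control 3 (0.0639), scMSC 2 (0.0791) or scMSC 3 (0.0719) and with the 6 libraries alone (0.0600). Against DNCB the log2 difference was 0.01 ± 0.40 in scMSC (adjusted p = 0.999) and 0.535 ± 0.40 in scivMSC (adjusted p = 0.4835). H2-DMb1 and its neighbour H2-DMb2 are near-identical and can share reads, so the level of each is uncertain.

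The FPKM of H2-DMa was 4.08, 4.67 and 6.32 in control, 3.58, 2.69 and 2.99 in DNCB, 4.075, 3.135 and 1.92 in scMSC and 3.07, 3.43 and 2.295 in scivMSC libraries. All 9 libraries of the DNCB-treated groups lay below the control range, the highest of them, scMSC 1, just under control 1. Against control the log2 fold change was -0.88 ± 0.26 in DNCB (adjusted p = 0.0323), -0.87 ± 0.26 in scMSC (adjusted p = 0.0424) and -0.95 ± 0.26 in scivMSC (adjusted p = 0.0381). The call in DNCB passed in 14 of 22 settings and was lost without DNCB 1, 2 or 3 or control 2 or 3, at 0.0523 to 0.105. The call in scMSC passed in 6 of 22 and was lost without control 1, 2 or 3, DNCB 1, 2 or 3, scMSC 2 or 3 or scivMSC 1 or 2, at 0.0510 to 0.113. The call in scivMSC passed in 7 of 22 and was lost without any library of the control, DNCB or scivMSC groups, at 0.0522 to 0.102. Against DNCB the log2 difference of H2-DMa was 0.00 ± 0.26 in scMSC and -0.07 ± 0.26 in scivMSC skin, with adjusted p values of 1.0 and 0.917. H2-DMa overlaps Brd2 on the other strand, at a mean of 19.1 FPKM, and whether the counting used strand is not given in the sources used here. Its level is therefore uncertain.

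Cd74, the invariant chain that holds new class II pairs until they reach the endosome, was the most abundant of the 9 genes in the control group. It had 95.0, 97.2 and 159.8 FPKM in control and 48.4, 52.1 and 45.25 in DNCB libraries. In scMSC it had 106.6, 50.2 and 30.9 FPKM and in scivMSC 105.6, 85.0 and 36.8. The control and DNCB libraries did not overlap, and the MSC groups spanned from below the DNCB range to within the control range. The log2 fold change of DNCB against control was -1.44 ± 0.43 (adjusted p = 0.03155). It passed in 14 of 22 settings and was lost without DNCB 1 (0.0877), DNCB 2 (0.0731), DNCB 3 (0.0949), control 1 (0.0508) or control 3 (0.0919), and with library size alone or limma at either pseudocount, at up to 0.0657. In scMSC against control the log2 difference was -1.07 ± 0.43 (adjusted p = 0.111), which passed without scMSC 1 (0.0214) and with DESeq2 (0.0439) and ranged up to 0.266 over the 22 settings. Against DNCB it was 0.37 ± 0.42 in scMSC (adjusted p = 0.660) and 0.63 ± 0.43 in scivMSC (adjusted p = 0.430). The microRNA gene Mir5107 lies within Cd74 on the same strand.

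Ciita, the coactivator that class II promoters need, was the lowest of the 9 genes. Its FPKM was 0.818, 0.273 and 0.713 in control and 0.252, 0.2801 and 0.350 in DNCB libraries. It was 0.454, 0.228 and 0.177 in scMSC and 0.585, 0.281 and 0.418 in scivMSC libraries. Control 2 lay inside the DNCB range, unlike the other control libraries. The log2 difference of DNCB against control was -1.21 ± 0.46 (adjusted p = 0.0775), and that of scMSC against control was -1.23 ± 0.46 (adjusted p = 0.0869). Neither passed, and both passed without control 2, at 0.0258 and 0.0311, the scMSC comparison also without scMSC 1 (0.0390). With DESeq2 both passed, at 0.0287 and 0.02965. Over the 22 settings these adjusted p values ranged up to 0.227 and 0.236. Against DNCB the adjusted p was 0.990 for scMSC, at -0.03 ± 0.45, and 0.5315 for scivMSC, at 0.55 ± 0.45. Ciita overlaps Dexi on the other strand, at a mean of 8.64 FPKM, many times the level of Ciita, so reads of Dexi could enter its count if strand was not used.

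Cd207 encodes langerin, the lectin of Langerhans cell Birbeck granules, which some dermal dendritic cells also carry. Its FPKM was 5.53, 5.39 and 6.84 in control libraries and 1.18, 2.12 and 1.58 in DNCB libraries. It was 8.002, 3.44 and 2.24 in scMSC libraries and 9.80, 7.11 and 6.90 in scivMSC libraries. The 3 DNCB libraries were the lowest of the 12, and the 3 scivMSC libraries lay above every control library. The scMSC libraries were spread from just over the DNCB range to above the control range. DNCB against control gave a log2 fold change of -2.04 ± 0.41 (adjusted p = 0.004945), the largest change among the 9 genes in that comparison, past the threshold in 22 of 22 settings.

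Against DNCB, Cd207 was 4.88-fold higher in the scivMSC group, at a log2 fold change of 2.29 ± 0.41 (adjusted p = 0.0102), in 3 of 3 libraries and in 22 of 22 settings. In the scMSC group the log2 fold change was 1.49 ± 0.40 (adjusted p = 0.0342), with 3 of 3 libraries above the DNCB range and 11 of 22 settings past the threshold. That call was lost without DNCB 1 (0.124), DNCB 2 (0.0535), DNCB 3 (0.103), control 1 (0.0514), control 2 (0.0507), scMSC 1 (0.0995) or scMSC 2 (0.0597), and under 4 of the 10 other settings. Without 1 library the log2 fold change ran from 0.86 to 1.82, lowest without scMSC 1. The order of the group means was scivMSC at 7.94 ± 1.61 FPKM (SD, 3 libraries), control at 5.92 ± 0.798, scMSC at 4.56 ± 3.04 and DNCB at 1.63 ± 0.471. Neighbours in this order other than scMSC and DNCB did not differ in the test. The log2 difference of scivMSC against control was 0.25 ± 0.39 (adjusted p = 0.743), although all 3 scivMSC libraries were higher, and it ran over the settings from 0.09 without scivMSC 1 to 0.42 with library size alone. It was -0.55 ± 0.39 for scMSC against control (adjusted p = 0.377), which ran from -1.17 without scMSC 1, where it passed (0.0301), to -0.22 without scMSC 3. For scivMSC against scMSC it was 0.80 ± 0.39 (adjusted p = 0.699), and ran from 0.47 without scMSC 3 to 1.42 without scMSC 1.

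Epcam encodes a membrane glycoprotein that Langerhans cells share with hair follicle and other epithelial cells. Control libraries had 48.9, 61.6 and 60.8 FPKM and DNCB libraries 49.8, 31.4 and 40.05. The scMSC libraries had 80.4, 113.9 and 66.6 FPKM and the scivMSC libraries 87.6, 71.75 and 71.9. All 6 libraries of the MSC groups lay above all 6 libraries without MSCs, and DNCB 1 fell inside the control range. Against DNCB the log2 fold change was 1.14 ± 0.23 in scMSC (adjusted p = 0.00967), past the threshold in 22 of 22 settings, and 0.94 ± 0.23 in scivMSC (adjusted p = 0.0325), in 17 of 22. The scivMSC call was lost without DNCB 2 (0.121), DNCB 3 (0.1004), scivMSC 1 (0.110) or scivMSC 3 (0.0786), and under 1 of the 10 other settings. DNCB against control gave -0.68 ± 0.23 (adjusted p = 0.0508), which missed the threshold and passed without DNCB 1 (0.0429), scMSC 2 (0.0139) or scMSC 3 (0.0365). It also passed with the 6 libraries alone (0.0295), DESeq2 (0.0227), RLE factors (0.0498) and counts divided by 4 (0.0460), so in 7 of 22 settings, which ranged up to 0.165. Against control the log2 difference was 0.46 ± 0.23 in scMSC (adjusted p = 0.195), and over the settings ran from 0.10 without scMSC 2 to 0.63 without scMSC 3. In scivMSC it was 0.26 ± 0.23 (adjusted p = 0.523), from 0.13 without control 1 to 0.43 with library size alone or limma. The group means ran from 86.9 ± 24.3 FPKM in scMSC (SD, 3 libraries) over 77.1 ± 9.13 in scivMSC and 57.1 ± 7.12 in control to 40.4 ± 9.20 in DNCB, and no pair of neighbours in this order differed in the test.

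The class II genes and Cd207 did not keep one ratio across the groups. The summed FPKM of H2-Aa, H2-Ab1, H2-Eb1, H2-DMa, H2-DMb1 and Cd74 was 183.3, 178.2 and 287.9 in control and 89.1, 96.1 and 87.35 in DNCB libraries. It was 190.1, 96.7 and 63.1 in scMSC and 183.0, 157.4 and 80.1 in scivMSC libraries. Cd207 amounted to 3.02%, 3.03% and 2.37% of that sum in control and 1.325%, 2.21% and 1.81% in DNCB libraries. In scMSC libraries it was 4.21%, 3.56% and 3.54%, and in scivMSC libraries 5.35%, 4.52% and 8.61%. On this ratio the DNCB libraries were the lowest and the 6 libraries with MSCs the highest, with no overlap with the control libraries, a description without a test. The library scivMSC 3 ranked 11 of 12 in the class II sum and 4 of 12 in Cd207.

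**Figure D2:**
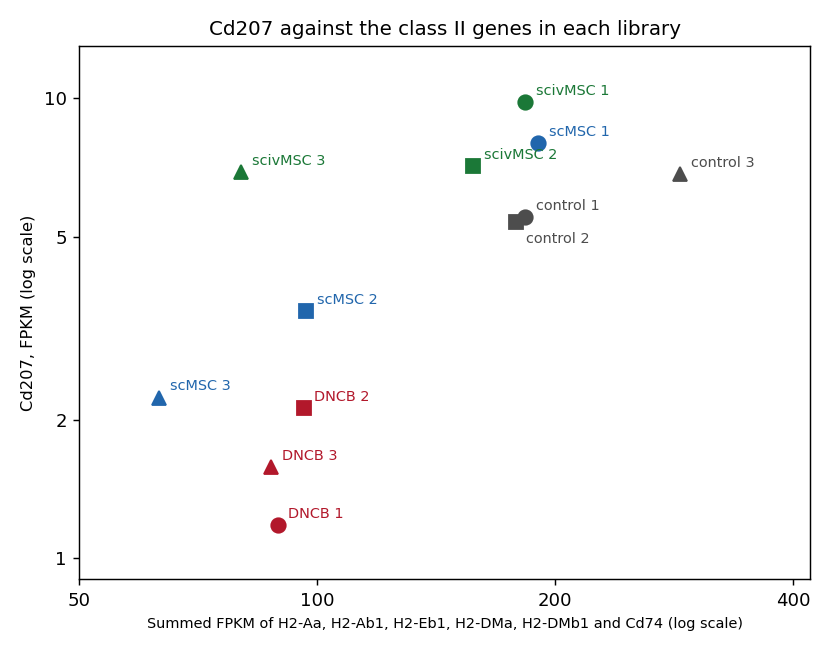
FPKM of Cd207 against the summed FPKM of 6 class II genes, both on log axes, with 1 labelled point per library. The DNCB libraries lie at the lower left, with sums from 87.35 to 96.1 and Cd207 from 1.18 to 2.12, and scivMSC 3 pairs a sum of 80.1 with a Cd207 level of 6.90.

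Across the 12 libraries the class II genes followed each other closely. The Pearson correlation of log2(FPKM + 0.1) ran from 0.78 to 0.978 over the 15 pairs of the 6 genes, and from 0.798 to 0.974 after each group's mean was taken off. Ciita correlated with them at 0.5385 to 0.778, Cd207 at 0.351 to 0.823 and Epcam at -0.0379 to 0.282. After the group means were taken off, these ranges were 0.310 to 0.625, 0.610 to 0.9195 and 0.0772 to 0.5485. Cd207 and Epcam correlated at 0.562 over the 12 libraries and at -0.0240 within groups. The points share their groups, with 3 libraries in each, and these values are descriptions.

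Among 14378 other genes averaging 1 FPKM or more, those most like the mean of the 6 class II genes over the 12 libraries were H2-Ea (r = 0.965), H2-D1 (0.955), Gm43302 (0.939), H2-T23 (0.939), Asah2 (0.936), Gm94 (0.930), B2m (0.929) and Dmkn (0.928). H2-Ea is the alpha chain of I-E, H2-D1 and H2-T23 are class I genes and B2m is the class I light chain. For Cd207 they included Miga2 (0.964), Gpld1 (0.9635), Ces1d (0.952), Serpinb6e (0.944), Tnfaip8l3 (0.942), Wfdc21 (0.941) and Abhd12b (0.939). Ces1d is a carboxylesterase. For Epcam they included Car6 (0.976), Homer2 (0.976), Zfand6 (0.954), Nck2 (0.952), Krt80 (0.951), Myo6 (0.9475) and Slc23a3 (0.941). Krt80 is a keratin of the epidermis. No gene was among the first 8 for more than 1 of the 3 profiles.

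Of 5 further class II genes measured, 3 passed the filter, and 2 of these were lower in DNCB than in control, where 12.4% of all genes tested were lower. The median log2 fold change over the 3 was -1.47, beside 0.02 over all genes tested. H2-Oa, a chain that modulates H2-DM, was the 1 of the 3 that did not pass, with a log2 difference of 0.61 ± 1.24 (adjusted p = 0.772). Beside the counts of this and the other lists, the shares of all genes tested that passed in either direction were 25.3% in DNCB, 18.5% in scMSC and 13.2% in scivMSC against control, and 12.7% in scMSC and 8.16% in scivMSC against DNCB. H2-Ea, the most abundant, had 85.15, 65.6 and 118.8 FPKM in control and 37.5, 38.0 and 34.2 in DNCB libraries, at a log2 fold change of -1.47 ± 0.36 (adjusted p = 0.0132). H2-DMb2 had 5.39, 5.18 and 7.75 FPKM in control and 2.50, 1.69 and 1.77 in DNCB libraries, at -1.795 ± 0.40 (adjusted p = 0.00784). All 3 DNCB libraries lay below the control range for both genes. Against DNCB 0 of the 3 passed in either MSC group, and H2-DMb2 was lower than control in scMSC skin, at -1.32 (adjusted p = 0.0387). The summed level of the list was 90.85, 71.2 and 126.7 FPKM in control, 40.4, 40.3 and 36.0 in DNCB, 92.0, 49.9 and 29.7 in scMSC and 90.1, 68.95 and 44.1 in scivMSC libraries.

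Of 9 proteases and other genes that prepare antigen for class II, 1 was higher and 0 were lower in DNCB than in control, where 25.3% of all genes tested passed in either direction, and their median was 0.48. It was Lgmn, an endosomal protease, with a log2 difference of 1.255 ± 0.37 (adjusted p = 0.0311). Against DNCB, 2 were lower in scMSC, Lgmn and the invariant chain protease Ctss, and 1 was lower in scivMSC, Lgmn. Ctss had 106.8, 114.3 and 98.8 FPKM in DNCB and 38.2, 13.5 and 15.7 in scMSC libraries, at -2.24 ± 0.65 (adjusted p = 0.0456). The most abundant was Ctsd, at a mean of 415.1 FPKM, which did not pass in these comparisons.

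Of 11 transcription factors that act on class II genes, 1 was higher and 0 were lower in DNCB than in control, with a median of -0.10. It was Nfya, a subunit of the factor that binds the Y box, with 2.83, 3.69 and 3.89 FPKM in control and 6.03, 5.58 and 6.125 in DNCB libraries, at 0.59 ± 0.12 (adjusted p = 0.00507). Against DNCB, 1 of 11 was lower in each MSC group, the myeloid factor Spi1, at -2.53 ± 0.55 in scMSC (adjusted p = 0.0136) and -2.00 ± 0.54 in scivMSC (adjusted p = 0.0461). The most abundant was Nfyc, another subunit of the same factor, at a mean of 10.4 FPKM. Of 7 genes of the interferon gamma axis tested, 0 were higher and 1 was lower in DNCB than in control, and 0 passed against DNCB in either MSC group. The median in DNCB against control was -0.50. The gene that was lower was the receptor chain Ifngr2, also the most abundant at 15.65 FPKM, at -0.78 ± 0.17 (adjusted p = 0.00760). Ifng itself was at or under the floor of 3 fragments in every library, and Irf1 belongs to both lists.

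Class I molecules display peptides from inside the cell to CD8 T cells. Of 9 genes of class I presentation, 7 were lower and 0 were higher in DNCB than in control, where 12.4% of all genes tested were lower, with a median log2 fold change of -1.10 beside 0.02 over all genes tested. B2m, the most abundant, had 640.0, 613.5 and 894.7 FPKM in control and 463.1, 397.2 and 466.9 in DNCB libraries, at -0.87 ± 0.24 (adjusted p = 0.0234). The immunoproteasome subunit Psmb8 had -1.19 ± 0.16 (adjusted p = 0.000954), and the peptide transporter chains Tap1 and Tap2 had -1.15 ± 0.16 (adjusted p = 0.00105) and -1.10 ± 0.21 (adjusted p = 0.00373). All 3 DNCB libraries lay below the control range for each of these 4 genes. Against control, 7 were also lower in scMSC and 4 in scivMSC skin, where 8.12% and 6.13% of all genes tested were lower, and against DNCB 0 passed in either MSC group. The summed class I level correlated with the class II mean at 0.943 over 12 libraries and at 0.944 within groups.

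Of 7 tested genes of costimulation and dendritic cell migration, 2 were higher and 0 lower in DNCB than in control, with a median of 0.65, where 25.3% of all genes tested passed in either direction. Fscn1, the most abundant and an actin-bundling protein of mature dendritic cells that other cells also make, had 6.34, 6.87 and 5.53 FPKM in control and 34.4, 34.8 and 31.9 in DNCB libraries, at 2.24 ± 0.31 (adjusted p = 0.00107). The costimulatory ligand Cd80 had 0.111, 0.223 and 0.593 FPKM in control and 1.99, 1.52 and 1.116 in DNCB libraries, at 2.16 ± 0.61 (adjusted p = 0.0243). All 3 DNCB libraries lay above the control range for both genes. Cd83 of the list went the other way without passing, with 1.09, 1.01 and 2.63 FPKM in control and 0.733, 0.872 and 0.585 in DNCB libraries. The mean of Ccr7 was also lower, at 0.326 FPKM in control and 0.252 FPKM in DNCB skin, without passing. Against DNCB, 2 of 7 were lower in each MSC group, where 12.7% of all genes tested passed in either direction in scMSC and 8.16% in scivMSC. They were Fscn1 and the inhibitory ligand Cd274. Fscn1 was at -1.575 ± 0.31 in scMSC (adjusted p = 0.00793) and -1.73 ± 0.31 in scivMSC (adjusted p = 0.00974), and Cd274 at -1.77 ± 0.37 (adjusted p = 0.0111) and -1.49 ± 0.37 (adjusted p = 0.0326).

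Of 10 genes of Langerhans cells and their niche, a list which holds Cd207 and Epcam, 2 were higher and 1 lower in DNCB than in control, 3 were higher and 2 lower in scMSC than in DNCB, and 2 were higher and 2 lower in scivMSC than in DNCB. The shares of all genes tested that passed in either direction were 25.3%, 12.7% and 8.16%. The median in DNCB against control was 0.05. The 3 higher in scMSC were Cd207, Epcam and Id2, a transcription factor that Langerhans cells need, at 1.08 ± 0.22 (adjusted p = 0.009415) with 3 of 3 libraries above the DNCB range. Cd24a, the most abundant at 83.2 FPKM and also made by keratinocytes, was higher in DNCB than in control, at 1.23 ± 0.17 (adjusted p = 0.00105). Against DNCB it was lower in scMSC, at -1.07 ± 0.17 (adjusted p = 0.00337), and in scivMSC, at -0.66 ± 0.17 (adjusted p = 0.0369). Tgfb1, a growth factor that Langerhans cells need, had 3.225, 3.31 and 4.37 FPKM in control and 10.65, 10.1 and 9.83 in DNCB libraries, at 1.31 ± 0.17 (adjusted p = 0.0008955). It was lower than DNCB in scMSC, at -1.13 ± 0.17 (adjusted p = 0.00293), and in scivMSC, at -0.92 ± 0.17 (adjusted p = 0.0116). Il34, a cytokine of the same list, went the other way in DNCB against control without passing. It had 11.26, 9.33 and 11.38 FPKM in control and 6.49, 7.17 and 5.92 in DNCB libraries, with every DNCB library below the control range.

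Other class II-bearing cells of skin were described by their markers, beside the class II result. Of 11 genes of conventional dendritic cells, 0 were higher and 1 lower in DNCB than in control, 1 was higher in scMSC than in DNCB and 0 passed in scivMSC against DNCB, with a median of -0.92 in DNCB against control. The gene was Mgl2, a lectin of dermal dendritic cells and macrophages, with 7.03, 6.74 and 14.8 FPKM in control and 1.04, 1.01 and 0.481 in DNCB libraries, at -3.64 ± 0.60 (adjusted p = 0.00194). Its log2 fold change in scMSC against DNCB was 2.23 ± 0.56 (adjusted p = 0.0266). The most abundant of the list, Clec10a, had -0.56 ± 0.69 in DNCB against control (adjusted p = 0.611). Itgax and Zbtb46 of the list went the other way without passing. Their means were 0.954 and 0.555 FPKM in control and 2.20 and 0.794 FPKM in DNCB skin, with every DNCB library above the control range for both. The summed level of the list was 23.0, 24.1 and 44.1 FPKM in control, 15.6, 19.4 and 16.9 in DNCB, 32.1, 11.9 and 13.6 in scMSC and 30.1, 27.3 and 6.26 in scivMSC libraries. It correlated with the class II mean at 0.834 over 12 libraries and at 0.887 within groups.

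Macrophage and monocyte markers had 0 of 10 past the threshold in edgeR in DNCB against control, with a median of 0.51, and in either MSC group against DNCB. Their summed level was 217.3, 236.7 and 840.2 FPKM in control, 749.7, 791.0 and 819.1 in DNCB, 413.5, 179.8 and 194.4 in scMSC and 350.4, 435.9 and 53.2 in scivMSC libraries, with Lyz2 the most abundant at a mean of 230.8. Control 3 had the highest of the 12 sums, above the DNCB libraries and apart from the other control libraries. Of 3 genes of all leukocytes, 2 were higher in DNCB than in control, Ptprc at 1.695 ± 0.48 (adjusted p = 0.0251) and Coro1a at 1.18 ± 0.33 (adjusted p = 0.0227), and both were lower than DNCB in each MSC group. The leukocyte sum was 16.1, 15.7 and 35.7 FPKM in control, 52.6, 51.0 and 53.3 in DNCB, 21.6, 11.2 and 9.99 in scMSC and 22.1, 26.65 and 7.16 in scivMSC libraries, with Laptm5 the most abundant. The DNCB libraries thus had the highest leukocyte sums of the 12 and class II sums below every control library. The class II mean correlated with the leukocyte sum at 0.170 over 12 libraries and at 0.9135 within groups, and with the macrophage sum at 0.2765 and 0.843. The part of these cells in the class II result was not tested.

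Neutrophils, cells that carry little class II, were described by 5 marker genes. Ly6g was at 0 FPKM in the 9 control, scMSC and scivMSC libraries and at 2.675, 4.93 and 1.83 in DNCB libraries, so it passed the filter through the DNCB group alone and is not counted. The 4 others were each higher in DNCB than in control and lower in each MSC group than in DNCB. The sum of the 5 was 122.8, 120.4 and 206.7 FPKM in control, 3034, 3330 and 2407 in DNCB, 40.1, 64.7 and 14.9 in scMSC and 33.1, 170.1 and 81.5 in scivMSC libraries, with S100a9 the most abundant at a mean of 534.8. The 3 with the smallest adjusted p were Cxcr2, S100a8 and Csf3r, at log2 fold changes of 2.36 ± 0.20, 3.975 ± 0.60 and 4.02 ± 0.62 in DNCB against control (adjusted p = 0.00034, 0.00142 and 0.00153). Of 6 tested T cell genes, 1 was higher in DNCB than in control, Cd4, at 1.78 ± 0.55 (adjusted p = 0.0357), a gene that some myeloid cells also carry. The median log2 fold change of the 6 was -0.58, and Cd3g, the most abundant, went the other way from a mean of 1.401 FPKM in control to 0.7028 in DNCB, at -1.16 ± 0.46 (adjusted p = 0.0899), which did not pass. The means of Cd3d, Cd3e and Trdc were also lower in DNCB without passing. Trac went up as Cd4 did, without passing, with 0.0, 0.1633 and 0.2795 FPKM in control and 0.6994, 0.6448 and 0.4975 in DNCB libraries. Cd4 was lower in scMSC than in DNCB, at -2.20 ± 0.56 (adjusted p = 0.0262). The T cell sum ran from 2.11 to 5.02 FPKM in control, from 3.27 to 3.80 in DNCB, from 0.703 to 2.58 in scMSC and from 1.92 to 2.70 in scivMSC libraries. B cell genes were near the floor, with 0 of 2 tested past the threshold in these comparisons, Ms4a1 at or under the floor of 3 fragments in every library and Cd79a, the most abundant, at 0.2801 FPKM. No listed gene was at 0 in all 12 libraries.

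**Figure D3:**
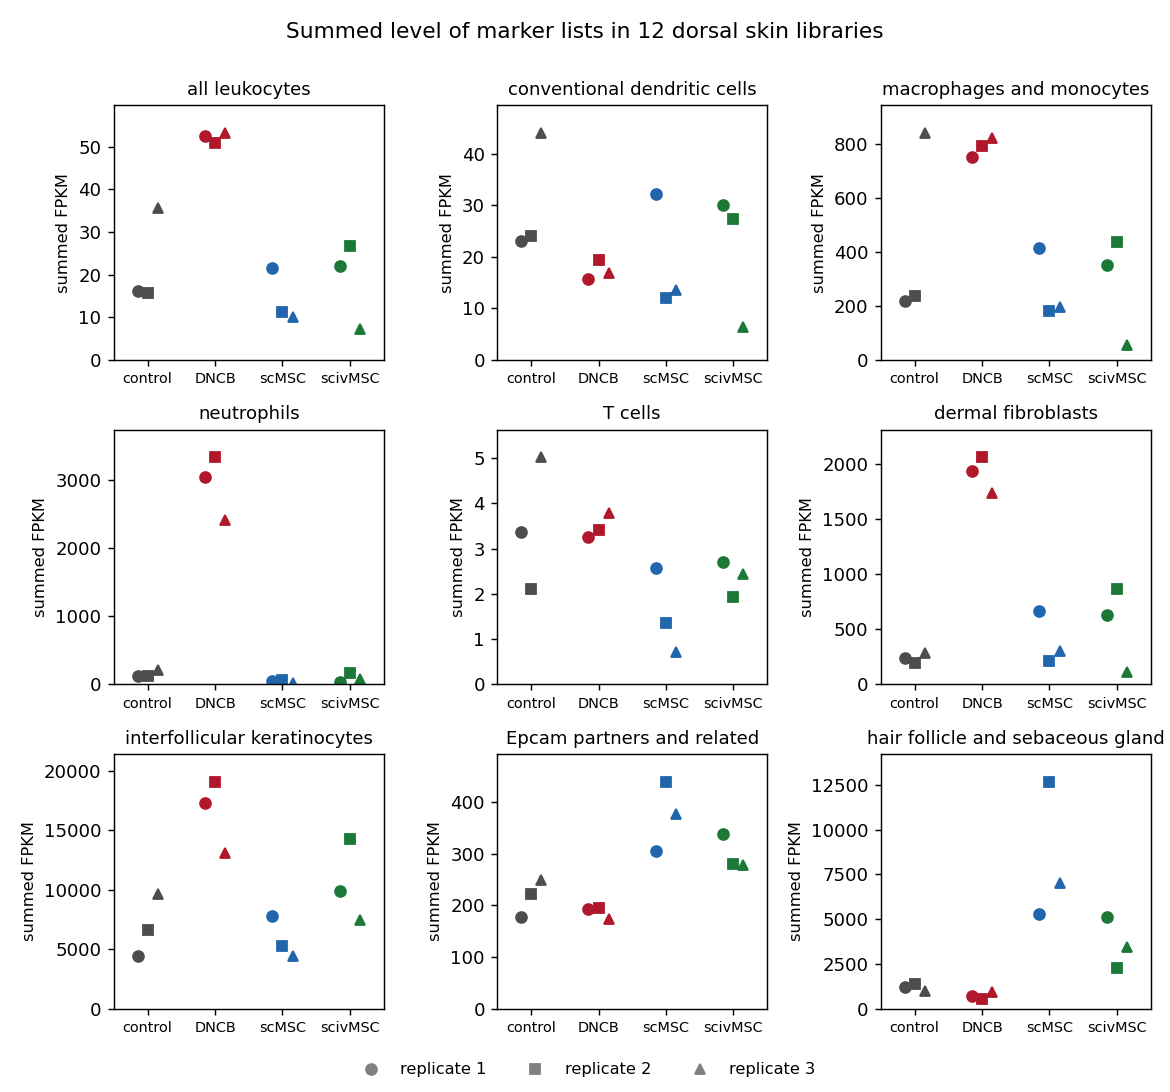
Summed FPKM of 9 marker lists in each of the 12 libraries by group, with the marker shape for the replicate number and a separate scale for each list. The leukocyte and neutrophil sums are highest in the 3 DNCB libraries, and the sums for Epcam partners and for hair follicle and sebaceous gland are higher in all 6 libraries with MSCs than in the 6 without. In the MSC groups most of the hair follicle and sebaceous gland sum is from Krt71, Krt25 and Krt27, while the sebaceous gene Scd1 has a mean below control.

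The skin was also described by its epithelial markers, beside the Epcam result. Keratinocyte genes were abundant in every library, with Krt10 at a mean of 4120 FPKM. Of 6, 3 were higher in DNCB than in control, Krt14 at 2.655 ± 0.39 (adjusted p = 0.00127), Krt5 at 1.27 ± 0.22 (adjusted p = 0.00278) and Trp63 at 0.61 ± 0.13 (adjusted p = 0.00717). Krt14 and Krt5 were lower in each MSC group than in DNCB. The sum was 4397, 6605 and 9655 FPKM in control, 17250, 19070 and 13050 in DNCB, 7766, 5231 and 4458 in scMSC and 9878, 14280 and 7451 in scivMSC libraries. Epcam correlated with this sum at -0.507 over 12 libraries and at 0.147 within groups.

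Of 6 partners and relatives of Epcam in epithelial junctions, 5 were higher in scMSC and 3 in scivMSC than in DNCB, and 2 were lower in DNCB than in control. The medians were 1.60, 0.95 and -0.32. Against control, 4 of the 6 were higher in scMSC skin, at a median of 1.37, and 4 in scivMSC skin, at a median of 0.63. Epcam itself did not pass against control in either MSC group. Cldn1, a claudin that Epcam binds, had 23.9, 19.4 and 22.0 FPKM in DNCB and 56.6, 73.6 and 55.1 in scMSC libraries, at 1.54 ± 0.19 (adjusted p = 0.00199). The protease inhibitors Spint1 and Spint2 had 1.665 ± 0.22 and 1.10 ± 0.15 in scMSC against DNCB (adjusted p = 0.00209 for each). In scivMSC against DNCB, Cldn1 had 1.197 ± 0.19 (adjusted p = 0.00618), Spint2 had 1.06 ± 0.15 (adjusted p = 0.00415) and Spint1 had 0.72 ± 0.22 (adjusted p = 0.0663). The sum of the list was 178.3, 222.6 and 249.9 FPKM in control, 192.6, 194.2 and 173.0 in DNCB, 305.6, 439.8 and 376.4 in scMSC and 338.5, 280.2 and 278.7 in scivMSC libraries. Epcam correlated with it at 0.873 over 12 libraries and at 0.541 within groups.

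Of 8 hair follicle and sebaceous gland genes, 4 were lower in DNCB than in control, and 2 in scMSC and 3 in scivMSC were higher than in DNCB. The medians were -0.18, 2.85 and 2.54. Against control, 4 of the 8 were higher in scMSC skin, at a median of 0.25, and 2 in scivMSC skin, at a median of 0.51. Scd1, a sebaceous desaturase, had 429.7, 543.0 and 467.2 FPKM in control and 77.5, 67.4 and 70.6 in DNCB libraries, at -2.93 ± 0.31 (adjusted p = 0.0004885), and the wax synthase Awat1 had -4.505 ± 0.56 (adjusted p = 0.000749). Krt15, a keratin of the bulge and basal layer, had -1.695 ± 0.37 (adjusted p = 0.00726). The sum of the list was 1199, 1381 and 982.1 FPKM in control, 686.0, 514.4 and 931.6 in DNCB, 5279, 12670 and 7010 in scMSC and 5105, 2273 and 3419 in scivMSC libraries. Krt71, an inner root sheath keratin and the most abundant at a mean of 1283 FPKM, had 2.08 ± 1.37 in DNCB against control (adjusted p = 0.301). Krt71, Krt25 and Krt27 made up most of the sum in both MSC groups. Their means were 3594, 2036 and 1977 FPKM in scMSC skin, where the mean sum was 8321. The means of Scd1 and Krt15 were below control in both MSC groups, those of Awat1 and Mgst1 in scMSC skin alone, and that of Lgr5 in neither. Epcam correlated with the sum at 0.888 over 12 libraries and at 0.615 within groups, and scMSC 2 was the highest library in both. The part of follicle and other epithelial cells in the Epcam result was not tested.

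Fibroblast genes also differed between the groups. Of 4, 3 were higher in DNCB than in control, Col1a1 at 3.53 ± 0.66, Col3a1 at 3.16 ± 0.65 and Col1a2 at 2.81 ± 0.60 (adjusted p = 0.00346, 0.00562 and 0.00663). The same 3 were lower in scMSC than in DNCB, and 0 passed in scivMSC against DNCB. The sum was 238.9, 191.9 and 280.9 FPKM in control, 1933, 2059 and 1737 in DNCB, 666.2, 213.9 and 299.3 in scMSC and 625.9, 860.4 and 113.3 in scivMSC libraries, with Col3a1 the most abundant at 282.6. In scivMSC 3 the fibroblast, macrophage, leukocyte and dendritic cell sums were all the lowest of the 12 libraries, while its Cd207 level was not. The part of the makeup of the tissue pieces in these differences was not tested.

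Of the 9 genes, 6 lie on chromosome 17 of GRCm38, and 5 of these within the MHC. H2-DMa (ENSMUSG00000037649) spans chr17:34119541-34139101 (+), H2-DMb1 (ENSMUSG00000079547) chr17:34153072-34160230 (+) and H2-Ab1 (ENSMUSG00000073421) chr17:34257689-34269419 (+). H2-Aa (ENSMUSG00000036594) spans chr17:34282744-34287823 (-) and H2-Eb1 (ENSMUSG00000060586) chr17:34305867-34316674 (+). Epcam (ENSMUSG00000045394) lies apart at chr17:87635979-87651106 (+). Cd207 (ENSMUSG00000034783) is on chromosome 6 at 83671215-83677857 (-), Ciita (ENSMUSG00000022504) on chromosome 16 at 10480059-10526426 (+) and Cd74 (ENSMUSG00000024610) on chromosome 18 at 60803848-60812646 (+). The stretch from H2-DMa to H2-Eb1 holds 12 other genes, 8 of them tested. In DNCB against control, 5 of the 8 were lower, Psmb8, Tap2, Tap1, H2-DMb2 and Psmb9, and 1 was higher, Brd2, where 12.4% of all genes tested were lower. The 5 lower genes were already counted above, H2-DMb2 among the further class II genes and the others among the class I genes. In scMSC against control 5 were lower, beside 8.12% of all genes tested, and in scivMSC against control 4, beside 6.13%, and 0 passed against DNCB in either MSC group.

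Brd2, a chromatin reader that lies among the class II genes and is no part of antigen presentation, was at a log2 fold change of 0.46 (adjusted p = 0.0220) in DNCB against control. Besides the 5 lower genes and Brd2, the 2 predicted genes Gm15821 and Gm20493 were tested there and did not pass, at log2 differences of -1.475 (adjusted p = 0.0818) and 0.50 (adjusted p = 0.860).

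Promoters are shown because the class II genes moved together. RefSeq sequences of GRCm38.p6 were matched by symbol for 6 of the 9 genes, those of H2-Aa, H2-Eb1, H2-DMa, H2-DMb1, Cd207 and Epcam. The 250 bases before each RefSeq start were searched on both strands for GATTGG, the core of the Y box, and ACNGATG, a core of the X box, where N is any base. Of 32851 promoters, 16.1% held the first, 9.85% the second and 1.52% both. H2-Eb1 and H2-DMb1 held both on the gene's own strand, with the Y core starting 60 and 62 bases before the start and 21 and 22 bases between the X and Y cores. H2-Aa held the Y core 49 bases before its start and the X core on the other strand at 232 bases. H2-Eb1 held a further Y core on the other strand at 35 bases. Of 2 RefSeq starts of H2-DMa, 1 held a Y core, at 199 bases, and neither held the X core. Both H2-DMa windows, chr17:34122582-34122831 and chr17:34125268-34125517, lie inside the gene span given above. The bases before that span were not searched, so the missing X core is limited to these windows. The H2-DMb1 window, chr17:34152941-34153190, also reaches into its span. The windows of Cd207 and Epcam held neither core. A match describes the letters and is no measured site. The windows of H2-Aa, chr17:34287824-34288073 on the minus strand, and of H2-Eb1, chr17:34305617-34305866 on the plus strand, end at the base before the gene and are printed 5′ to 3′ with matches of either core in capitals.
H2-Aa: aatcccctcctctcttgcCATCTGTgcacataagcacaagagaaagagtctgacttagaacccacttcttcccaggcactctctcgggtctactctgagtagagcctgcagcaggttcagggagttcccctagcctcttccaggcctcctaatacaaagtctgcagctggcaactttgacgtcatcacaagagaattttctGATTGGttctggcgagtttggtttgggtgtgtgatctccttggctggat
H2-Eb1: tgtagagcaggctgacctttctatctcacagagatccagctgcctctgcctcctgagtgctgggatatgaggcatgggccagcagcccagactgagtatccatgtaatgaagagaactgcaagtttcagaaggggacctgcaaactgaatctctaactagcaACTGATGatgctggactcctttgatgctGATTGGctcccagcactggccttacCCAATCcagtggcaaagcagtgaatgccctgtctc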

How the data were processed

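Skin samples of 4 groups with 3 libraries each were used, and blood was not analysed here. The paper describes more mice per group than these libraries. Whether each library came from 1 mouse is not given in the sources used here. The FPKM values were deposited by the authors, 1 per gene and library, and were used for levels, sums and correlations. The estimated count values were deposited by the authors as whole numbers and were used for the tests. Of the estimated counts from 1 to 18, between 38.9% and 41.2% per library were multiples of 4, so 3 fragments, or 12 estimated counts, were taken as the floor. The submitters' processing notes name Bowtie 0.12.2, HISAT2 2.0, StringTie 1.3.0 and the genome build mm8 without role or order, while the gene coordinates lie on GRCm38.

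Genes averaging 0.1 FPKM or more over the 12 libraries entered edgeR 4.0.16 in R 4.3.3, with the quasi-likelihood F-test on all 12 libraries, with TMM factors from 0.887 to 1.06 and a common biological coefficient of variation of 0.42. P-values were adjusted by the Benjamini-Hochberg method over all genes tested, and the threshold was an adjusted p of 0.05. The SE is the log2 fold change divided by the square root of F. Alternatives were DESeq2 1.42.0, limma 3.58.1 on log2 FPKM with pseudocounts of 0.1 and 1, RLE factors, library size alone, no filter, filterByExpr, counts divided by 4, the 6 libraries of a comparison alone, a replicate block, a fold threshold, and leaving out each library. Named genes were the 9 members, the most abundant gene of each list, up to 3 of its genes past the threshold with the smallest adjusted p in DNCB against control or an MSC group against DNCB, and the 8 genes most correlated with each of 3 profiles. Some genes that this rule selects are not used here. Genes outside it were named after their values were seen. The members and lists were chosen with earlier results of these data known.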

Additional observations from a re-analysis of the deposited data

How the results depend on the processing

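Each of the 54 pairs of a gene and a comparison was recomputed under 22 settings, 12 of which leave out a library. None of the 17 that passed reversed in any of them. The 22 settings do not include the fold threshold, which was applied to the counts of genes only. The genes of the marker lists were tested with the first settings only. The number of the 9 genes past the threshold changed by over 1.5 times as follows. In scMSC against control, 5 became 0 with the 6 libraries alone, 1 with library size alone, 1 with limma at a pseudocount of 0.1, 1 with limma at 1, 1 with no filter, 2 with an absolute log2 fold change over 1 also required and 3 with the replicate block. In scivMSC against control, 1 became 0 with the 6 libraries alone, library size alone, limma at either pseudocount, no filter, the replicate block or the fold threshold, and 3 with DESeq2. In scMSC against DNCB, 2 became 1 with the 6 libraries alone, limma at either pseudocount or the replicate block. In scivMSC against DNCB, 2 became 1 with the replicate block or the fold threshold. Without 1 library, the count ran from 4 to 8 in DNCB against control, 0 to 8 in scMSC against control, 0 to 2 in scivMSC against control, 1 to 2 in scMSC against DNCB and 1 to 2 in scivMSC against DNCB. The cause was not tested.

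Among differences that did not pass, H2-DMa in scMSC against DNCB changed sign to -0.07384 and -0.04692 with limma at 0.1 and 1, -0.01894 with library size alone, -0.004221 with no filter, -0.009508 with the 6 libraries alone and -0.02015 with the replicate block. H2-DMb1 did so at -0.1068 and -0.04662 with limma, -0.003258 with the 6 libraries alone and -0.04069 with the replicate block. Without 1 library, log2 differences in scMSC against DNCB ran from -0.03711 to 0.6261 for H2-Ab1, -0.125 to 0.6182 for H2-Eb1, -0.2202 to 0.254 for H2-DMa, -0.4609 to 0.2322 for H2-DMb1, -0.196 to 0.7022 for Cd74 and -0.4806 to 0.2276 for Ciita. In scivMSC against DNCB, H2-DMa ran from -0.1764 to 0.05788. In scivMSC against scMSC they ran from -0.04552 to 0.6123 for H2-Aa, -0.1237 to 0.5395 for H2-Ab1, -0.3268 to 0.1474 for H2-DMa, -0.07193 to 0.8263 for Cd74 and -0.3758 to 0.1118 for Epcam. The cause was not tested.

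The number of all genes past the threshold, with its range over the settings, was 5541 (range 3098 to 6873) in DNCB against control, 4049 (range 2040 to 5527) in scMSC against control, 2899 (range 1103 to 4315) in scivMSC against control, 2786 (range 1541 to 4063) in scMSC against DNCB, 1787 (range 558 to 3215) in scivMSC against DNCB and 1 (range 1 to 138) in scivMSC against scMSC. Scaling by library size alone moved the median log2 fold change of all genes against control to 0.203, 0.159 and 0.214. The replicate numbers do not pair the mice across groups as far as the values show, since deviations from group means correlated at -0.185 to 0.133 over 18 pairs of libraries with the same number, so the block is a formal check. With 3 libraries per group, single libraries move the calls near the threshold.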
